A study of Sus scrofa with 19 samples.

Results

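The genes described here encode the proteasome, its assembly factors and its regulators, as measured in the LD muscle (longissimus dorsi, which the labels call longissimus thoracis et lumborum) of Duroc pigs. Members were all probe sets whose single gene symbol in the platform annotation began with PSMA, PSMB, PSMC, PSMD, PSME, PSMF or PSMG. This rule took 46 probe sets of 40 genes, out of 23999 tested probe sets and 6765 genes with 1 symbol, and each gene was represented by its brightest probe set. All pigs came from a commercial Duroc line, were raised on a commercial pellet diet and were slaughtered at 190 days of age. From a larger population ranked on carcass, plasma and muscle fat traits, the extremes formed the HIGH (10 pigs) and LOW (9 pigs) fattening groups, so the groups are the ends of a phenotypic distribution and not the result of a treatment. Each pig gave 1 Affymetrix array, and nothing is known here of the batch, the family or the scan date of an array. Values are log2 signals after GCRMA, a method that corrects the background, normalizes the arrays and summarises each probe set, so a difference of 1 is a 2-fold difference in signal.

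The 26S proteasome is the main protease for ubiquitin-tagged proteins, and in skeletal muscle it degrades a large part of the myofibrillar protein. Its barrel, the 20S core, is built of outer alpha rings, which gate the entry, and inner beta rings, which carry the catalytic sites. A 19S cap, divided into a base with ATPases and a lid with a deubiquitinase, recognises, unfolds and feeds in the substrates. Cells exposed to interferon replace the catalytic beta subunits by immunoproteasome subunits, and other caps such as the PA28 activators can take the place of the 19S complex.

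The members covered 7 alpha subunits (PSMA1 to PSMA7), 7 constitutive beta subunits (PSMB1 to PSMB7), 2 immunoproteasome subunits (PSMB8 and PSMB10), 8 base and 7 lid subunits, 4 assembly chaperones, 4 activators and the inhibitor PSMF1. PSMA8, PSMB9, PSMB11, PSMC4, PSMD7, PSMD9, PSMG2 and PSMG4 had no probe set of their own under the rule and were not analysed here. The array medians lay between 3.43 and 3.59, and no pair of arrays held identical values. The 7 measured skeletal muscle fibre markers were bright in every pig, with a mean log2 signal of 15.07 to 15.19 in HIGH and 15.11 to 15.25 in LOW pigs. Across the whole array, 0 probe sets, or 0.0% of those tested, passed an adjusted p of 0.05 between HIGH and LOW in limma, while 843 (3.51%) had an unadjusted p below 0.05. The lowest adjusted p was 0.993, so no gene below is called as changed, and the p-values of single members are unadjusted limma p-values unless another test is named.

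Of the 40 members, 39 gave a signal above the brightest tag control (probe sets for sequences foreign to the pig) of the same array in all 19 pigs. The exception was PSMB8, the catalytic immunoproteasome subunit that replaces PSMB5, which exceeded the tag controls on 2 arrays. Apart from PSMB3, every constitutive core and cap subunit had a mean log2 signal of at least 9.12. Signals of different probe sets were not ranked against each other, since each probe set binds with its own strength.

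**Figure D1:**
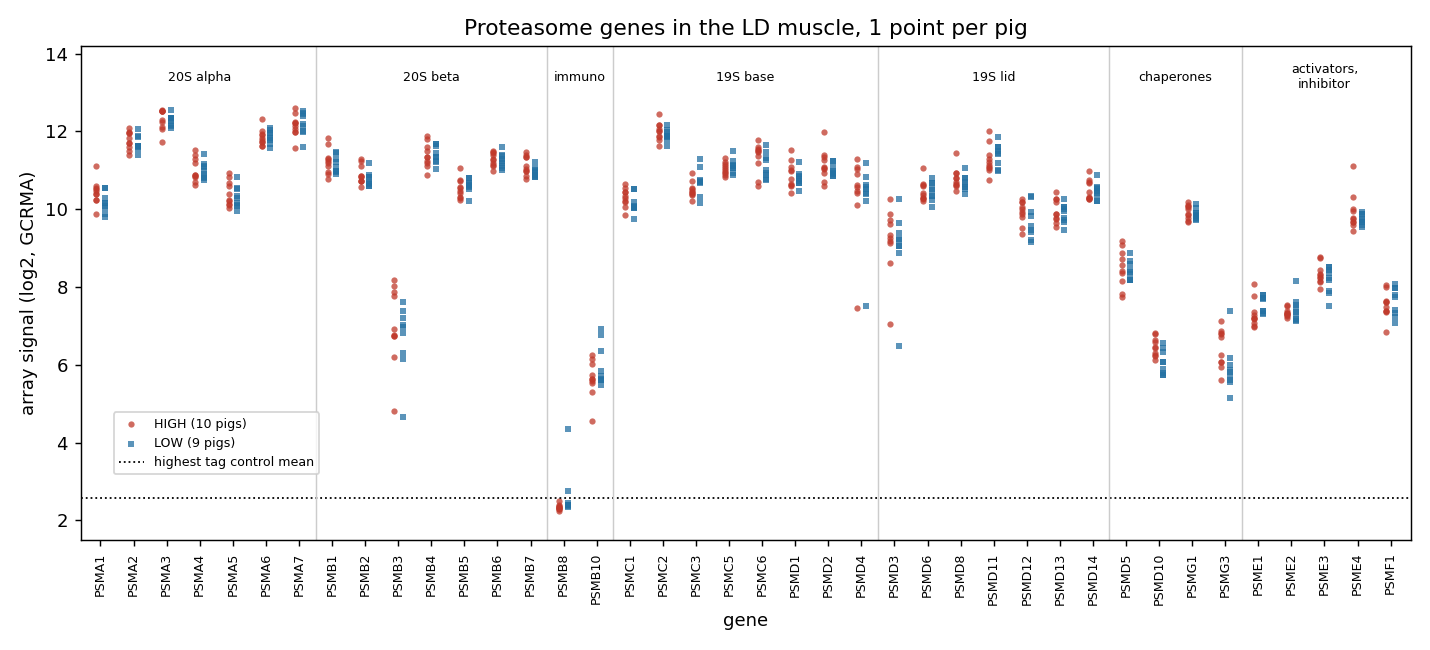
Log2 signal (vertical axis) of the 40 members (horizontal axis, by class) in each of 10 HIGH pigs (circles) and 9 LOW pigs (squares). The dotted line is the highest mean of a tag control, 2.56. PSMB8 lies at or below the line in 17 pigs, and PSMB3, PSMD3 and PSMD4 each have 2 pigs far below the others.

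The 3 catalytic subunits of the constitutive beta ring varied little between pigs. PSMB5 carries the chymotrypsin-like site, and its log2 signal ran from 10.23 over a median of 10.52 to 11.07 in HIGH pigs and from 10.21 over 10.61 to 10.80 in LOW pigs. The groups overlapped, with a difference of -0.06 (HIGH minus LOW, SE 0.11, p = 0.55). PSMB6, with the caspase-like site, ran from 10.98 over 11.28 to 11.51 in HIGH and from 11.001 over 11.24 to 11.61 in LOW pigs, and its SD over all pigs, 0.18, was among the 3 lowest of the members. PSMB7, with the trypsin-like site, ran from 10.77 over 11.07 to 11.48 in HIGH and from 10.82 over 10.97 to 11.21 in LOW pigs. Its difference was 0.18 (SE 0.09, p = 0.0758), and the lowest values of the groups were nearly the same while the highest was in a HIGH pig. Among the alpha subunits PSMA1 had the smallest p, with 9.88 to 11.10 (median 10.43) in HIGH against 9.79 to 10.55 (median 10.16) in LOW pigs and a difference of 0.27 (SE 0.13, p = 0.0569). The other 6 alpha subunits differed by between -0.05 and 0.10.

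The 19S base and lid likewise showed small differences between the groups. PSMC1, an ATPase of the base, was 10.30 ± 0.24 (SD, n = 10) in HIGH and 10.14 ± 0.25 (n = 9) in LOW pigs. Its difference of 0.16 (SE 0.11, p = 0.172) had the smallest p of the base genes with a higher mean in HIGH. In the opposite direction, the ATPase PSMC3 was 10.50 ± 0.20 in HIGH and 10.71 ± 0.35 in LOW pigs, a difference of -0.21 (SE 0.13, p = 0.11). The ATPase PSMC5 was 11.05 ± 0.15 in HIGH and 11.12 ± 0.18 in LOW pigs, and had the second smallest SD over all pigs of the 40 members (0.17). PSMC3 and PSMC5 were both highest in LOW 1444, at 11.30 and 11.51. In that pig the difference between the 3′ and 5′ control probe sets of actin, EF1A and GAPDH, a sign of RNA integrity and labelling, was also the highest of all 19 pigs, 1.61 against 0.77 to 1.20 in the others, and its part in these values was not tested.

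Of the 40 members, PSMD10 alone had an unadjusted p below 0.05. It encodes gankyrin, a chaperone that binds an ATPase of the base during cap assembly. In order of animal number, its log2 signal was 6.23, 6.31, 6.43, 6.45, 6.63, 6.59, 6.82, 6.25, 6.12 and 6.80 in the HIGH pigs and 5.78, 6.06, 6.33, 5.89, 6.07, 5.74, 6.44, 5.73 and 6.57 in the LOW pigs. All 10 HIGH pigs were at 6.12 or above, whereas 6 of 9 LOW pigs were below that value, and the ranges overlapped. The difference of 0.40 (SE 0.13, 95% interval 0.12 to 0.67, p = 0.00744) corresponded to a signal 1.32-fold higher in HIGH pigs, and its adjusted p was 0.993 in limma. At an unadjusted p below 0.05, 1 of 40 members was higher in HIGH, beside 1.87% of all probe sets, and 0 of 40 were lower, beside 1.64%, so the share among the members was near that of the whole array.

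PSMG3, a chaperone of 20S assembly, had the largest difference of the 40 genes. It was 6.43 ± 0.50 in HIGH pigs and 5.92 ± 0.62 in LOW pigs, 0.51 apart (SE 0.25, p = 0.0521). The LOW group held both the lowest pig (LOW 1918, 5.15) and the highest (LOW 2157, 7.37). Over the fits that left out 1 pig, the difference ranged from 0.41 to 0.69. The largest came without LOW 2157 (p = 0.0025, adjusted p = 0.923 in limma). PSMG1, another 20S chaperone, was 9.93 ± 0.19 in HIGH and 9.88 ± 0.14 in LOW pigs, with the smallest SD of all members (0.16). PSMD5, a base chaperone, differed by 0.07 (SE 0.18).

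Most members had a slightly higher mean in HIGH pigs. The fitted difference was above 0 for 28 of 40 members (70.0%), against 41.3% of all probe sets and 49.4% of the genes with 1 symbol, and the members are not independent of each other, since they varied together over the pigs. By class the share was 5 of 7 for the alpha ring, 5 of 7 for the constitutive beta ring, 6 of 8 for the base, 6 of 7 for the lid, 4 of 4 for the chaperones, 2 of 5 for the activators and the inhibitor and 0 of 2 for the immunoproteasome. The median log2 difference was 0.02 for the alpha ring, 0.08 for the constitutive beta ring, 0.12 for the base, 0.08 for the lid, 0.23 for the chaperones, -0.09 for the activators with the inhibitor and -0.33 for the immunoproteasome, beside -0.01 over all probe sets. With 1 pig left out, these medians ranged from -0.0012 to 0.07, 0.01 to 0.13, 0.05 to 0.16, 0.02 to 0.12, 0.19 to 0.28, -0.12 to -0.001 and -0.38 to -0.20, in the same order, so all but that of the chaperones moved by over 1.5 times. Of the 40 intervals, 39 held 0. The groups overlapped in each member, but overlap was not counted over all probe sets, so nothing particular to the members is read from it. Leaving out HIGH 8697, the pig with the highest values in most constitutive genes, 24 members were higher in HIGH.

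**Figure D2:**
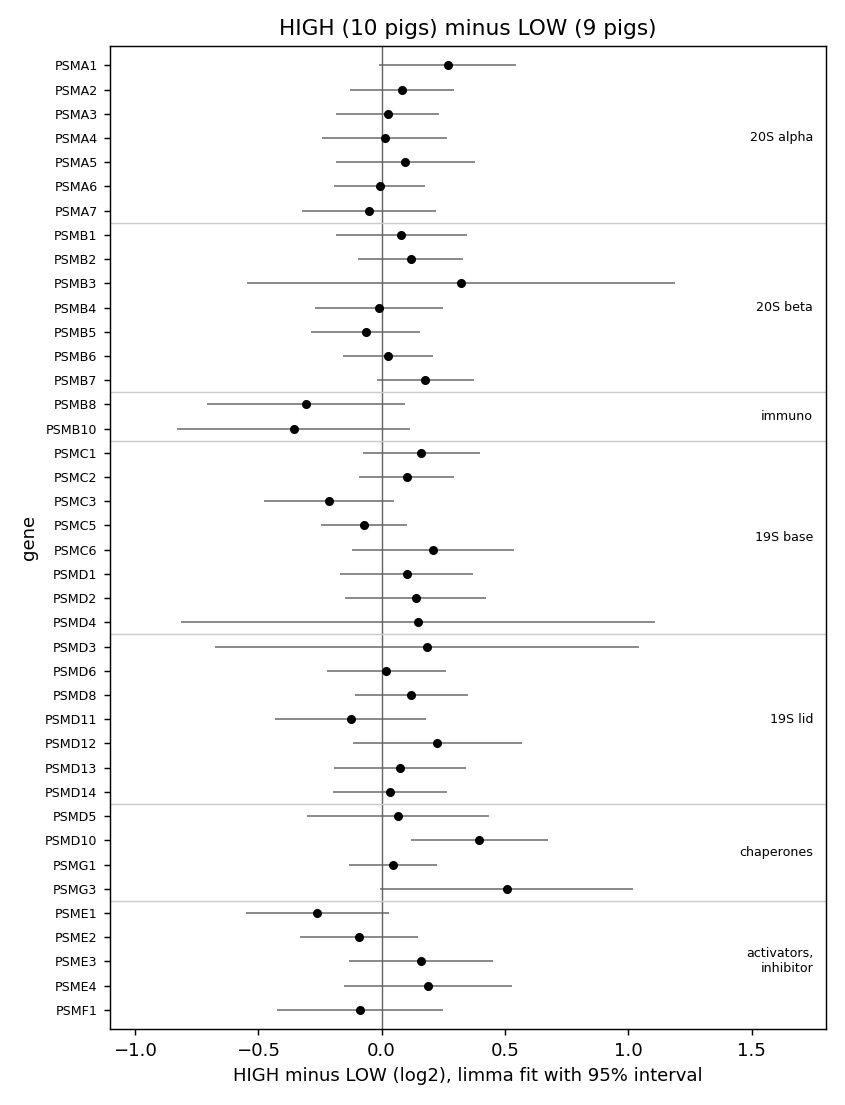
Difference in mean log2 signal, HIGH minus LOW (horizontal axis), of each member (vertical axis, by class), with the 95% interval of the limma fit over 10 and 9 pigs. Only the interval of PSMD10, 0.12 to 0.67, lies wholly on one side of 0, and the widest belong to PSMB3, PSMD3 and PSMD4.

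Both measured immunoproteasome subunits and both PA28 subunits were among the 12 members with lower means in HIGH pigs, and LOW 8700 stood apart in PSMB8 and PSME2. PSMB8 was between 2.25 and 2.50 in all 10 HIGH pigs. In LOW pigs it was 2.39, 2.40, 2.39, 2.76, 2.44, 2.34, 2.39, 2.38 and, in LOW 8700, 4.35. The values at or below the tag controls carry no order, so the contrast of PSMB8 rests on LOW 8700 and, to a lesser degree, LOW 1594. The fitted difference of -0.31 (SE 0.19, p = 0.128; exact permutation test over 92378 splits, p = 0.015) was -0.09 without LOW 8700 (p = 0.0605). The exact test also uses the values near the background, which say little about expression.

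PSMB10, the immunoproteasome subunit that replaces PSMB7, was measured in every pig. In HIGH pigs it was 5.58, 6.14, 5.62, 5.63, 6.25, 6.01, 5.54, 5.30, 5.73 and 4.55, and in LOW pigs 5.48, 5.61, 5.60, 6.75, 5.64, 6.92, 5.83, 5.72 and 6.36. The 3 highest pigs (LOW 2157, LOW 1594 and LOW 8700) were LOW and the lowest was HIGH 8697, and the other 15 pigs of both groups lay between 5.30 and 6.25. The difference was -0.36 (SE 0.23, p = 0.13). The log2 ratio of the RNA signal of each immunoproteasome subunit over its constitutive counterpart was compared between the groups by an exact permutation test. The exchange of the proteins in the core was not measured. For PSMB10 over PSMB7 the ratio was lower in HIGH pigs by a log2 difference of -0.53 (two-sided exact p = 0.0676, adjusted over the 2 ratios p = 0.135). It was -5.50 ± 0.64 in HIGH and -4.96 ± 0.55 in LOW pigs. Of the HIGH pigs, 9 of 10 lay below the LOW mean, but so did most LOW pigs. That mean was raised by LOW 2157, LOW 1594 and LOW 8700. For PSMB8 over PSMB5 the difference was -0.24 (exact p = 0.382, adjusted p = 0.382), but with PSMB8 at background in 17 of 19 pigs this ratio says nothing about the balance of the 2 RNAs. Neither passed the threshold. Without HIGH 1540 or without LOW 2187 the ratio of PSMB10 over PSMB7 had an unadjusted exact p of 0.0371 and 0.0464. Its difference ranged from -0.62 to -0.37 when 1 pig was left out.

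PSME1 and PSME2 encode the subunits of PA28, an interferon-induced activator of the core, and lie side by side on chromosome 7 (Sscrofa11.1, 75161830 to 75164531 and 75154570 to 75157871). PSME1 ran from 6.97 over a median of 7.20 to 8.09 in HIGH pigs and from 7.31 over 7.70 to 7.80 in LOW pigs. It had the smallest p of the members that were lower in HIGH (-0.26, SE 0.14, p = 0.0755). Of the 10 HIGH pigs, 8 were at 7.36 or below, and HIGH 1533 held the highest value of all. Over the fits that left out 1 pig, the difference of PSME1 ranged from -0.35 to -0.22. The largest in size came without HIGH 1533 (p = 0.00722, adjusted p = 0.89 in limma). PSME2 ran from 7.19 over 7.32 to 7.54 in HIGH pigs and from 7.13 over 7.36 to 8.14 in LOW pigs, and its highest pig was again LOW 8700, with the next pig at 7.61. Its difference of -0.09 (SE 0.11) was -0.001 without that pig. PSME3, the nuclear relative of PA28, was 8.33 ± 0.26 in HIGH and 8.17 ± 0.34 in LOW pigs, and PSME4, a large single-chain activator, was 9.93 ± 0.49 and 9.74 ± 0.14. The spread of PSME4 in the HIGH group came from HIGH 8697 (11.11), the next pig being at 10.33. The inhibitor PSMF1 differed by -0.09 (SE 0.16).

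**Figure D3:**
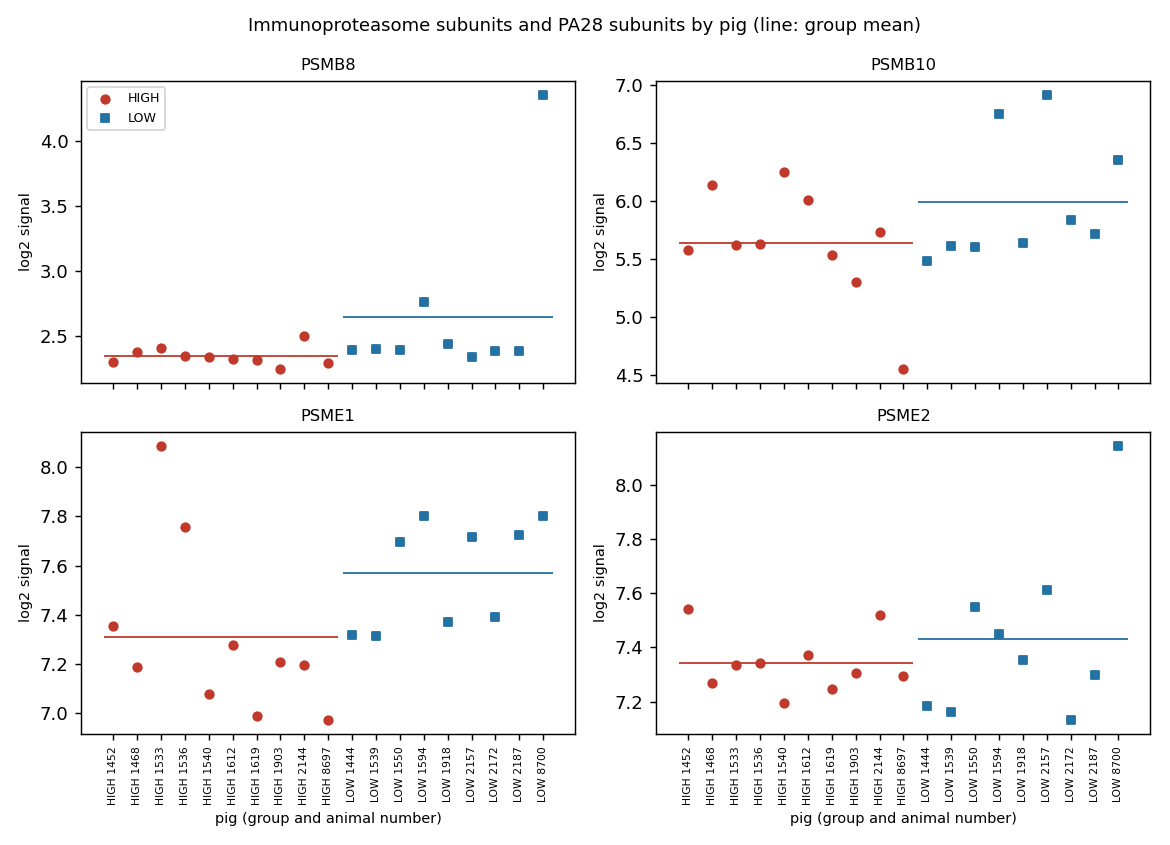
Log2 signal (vertical axes, which differ in range and do not start at 0) of PSMB8, PSMB10, PSME1 and PSME2 by pig (horizontal axis), with HIGH pigs as circles, LOW pigs as squares and group means as lines. LOW 8700 is the highest pig for PSMB8 (4.35) and PSME2 (8.14).

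LOW 8700 was also the highest pig for other genes of antigen presentation and of immune cells. TAP1, which carries proteasome-made peptides into the endoplasmic reticulum, was 8.46 in this pig, with the next pig at 7.97. IRF1, a transcription factor of the interferon response, was 6.57 there and at most 4.995 elsewhere, and TAPBP, a partner of TAP1, was 5.53 against at most 5.14. Of the 8 measured lymphocyte markers, 3 were highest in this pig: CD3E, above the tag controls here only (2.91), CD2 (3.24 against at most 2.72) and PTPRC (3.37 against at most 3.30). CD3D and CD3G were at background in every pig, CD4 and CD79B were slightly below their means in LOW 8700 (2.52 and 3.08), and CD8A was highest in HIGH 1536. The mean over the lymphocyte list was 2.80 in LOW 8700, against 2.51 to 2.66 over the HIGH pigs, and it lay between 2.54 and 2.80 over the LOW pigs. The mean over 7 macrophage markers was 4.15 to 5.47 in HIGH and 4.02 to 5.45 in LOW pigs, and 2 of this list, AIF1 and C1QA, were highest in LOW 8700. C1QC and TYROBP were highest in HIGH 1533, CD163 in HIGH 1452, MRC1 in LOW 1594 and CD14 in HIGH 1536, and B2M, the light chain of MHC class I, was highest in LOW 1550. The part of these cells in the signals of PSMB8 and PSME2 was not tested, and in whole muscle more cells of a type and more RNA per cell cannot be told apart.

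Of 33 other genes fixed for the pathway (ubiquitin genes, shuttle and unfolding factors, transcription factors and antigen presentation), 12 were measured, 7 with a higher and 5 with a lower mean in HIGH pigs. At an unadjusted p below 0.05, 0 of 12 were higher, beside 1.87% of all probe sets, and 1 of 12 was lower, beside 1.64%. The lower gene was TAP1 (6.60 ± 0.62 in HIGH, 7.14 ± 0.53 in LOW, difference -0.54, SE 0.25, p = 0.046, adjusted p = 0.993 in limma). Its highest pig was LOW 8700 (8.46), and how far the difference rested on that pig was not tested. The ubiquitin genes UBB and RPS27A differed by 0.00 and 0.11, and VCP, the ATPase that extracts ubiquitinated proteins, by 0.00. The adipocyte list, which reflects fat cells between the fibres, held FABP4 at 10.88 ± 0.31 in HIGH and 10.30 ± 0.37 in LOW pigs (difference 0.58, SE 0.15, p = 0.001, adjusted p = 0.993 in limma) and ADIPOQ 1.39 higher in HIGH (p = 0.0219, adjusted p = 0.993). LPL differed by 0.04. PCK1 (0.03) exceeded the tag controls on 1 array and LEP (-0.06) on 0, so their differences say little about expression. With these 2 genes included, the median over the list was 0.04. The mean over its 5 measured genes, PCK1 and LEP included, ran from 5.68 to 6.65 in HIGH and from 5.39 to 6.56 in LOW pigs.

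Over the pigs, the constitutive subunits varied together. The Pearson correlation of log2 signals after removal of the group means was averaged over pairs of genes and is given as a description, since all genes share the same 19 arrays. The mean r was 0.43 over the 91 pairs of 20S core subunits, 0.31 over the 105 pairs of 19S cap subunits and 0.36 over the 210 pairs of a core with a cap subunit. It was 0.02 over all pairs of the 6765 genes with 1 symbol and 0.02 over the 1210 of them with a mean above 9. Without HIGH 2144 and LOW 2157, which were low in PSMB3, PSMD3 and PSMD4 (below), the mean r was 0.48 within the core and 0.43 within the cap. Of the rings and subcomplexes, the alpha ring had the highest mean (0.49, with all 21 pairs above 0) and the base the lowest (0.22, with 64.3% of 28 pairs above 0).

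The subunits with the highest mean correlation to the other 28 constitutive genes were the ATPase PSMC2 (0.55), and the lid subunits PSMD8 (0.51) and PSMD13 (0.50). Among the constitutive genes, the closest pairs were PSMC3 with PSMC5 (0.91), PSMB1 with PSMB4 (0.91) and PSMC1 with PSMB1 (0.86), apart from the pairs within PSMB3, PSMD3 and PSMD4. At the other end were the ATPase PSMC6 (0.03), PSMD4 (0.06), the lid subunit PSMD12 (0.13) and PSMC3 (0.14). PSMC6 had its highest r with PSMD12 (0.71), and r of 0.64 with PSMA3 and 0.58 with PSMA1. Among the regulators, PSME3 (0.39) and PSME4 (0.36) had positive mean correlations with the constitutive subunits. For PSME4, HIGH 8697 was far the highest pig (11.11, the next at 10.33), and it was also highest for 18 of the 29 constitutive genes. How far the mean of PSME4 rested on HIGH 8697 was not tested. PSME1 (-0.04), PSME2 (-0.02), PSMD10 (-0.05) and PSMB8 (-0.10) had means near 0. The other assembly chaperones, PSMG3 (0.36), PSMD5 (0.27) and PSMG1 (0.18), had positive means, as did the inhibitor PSMF1 (0.25). PSMB10 had a mean of -0.35 and was negatively correlated with 27 of the 29 constitutive genes.

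**Figure D4:**
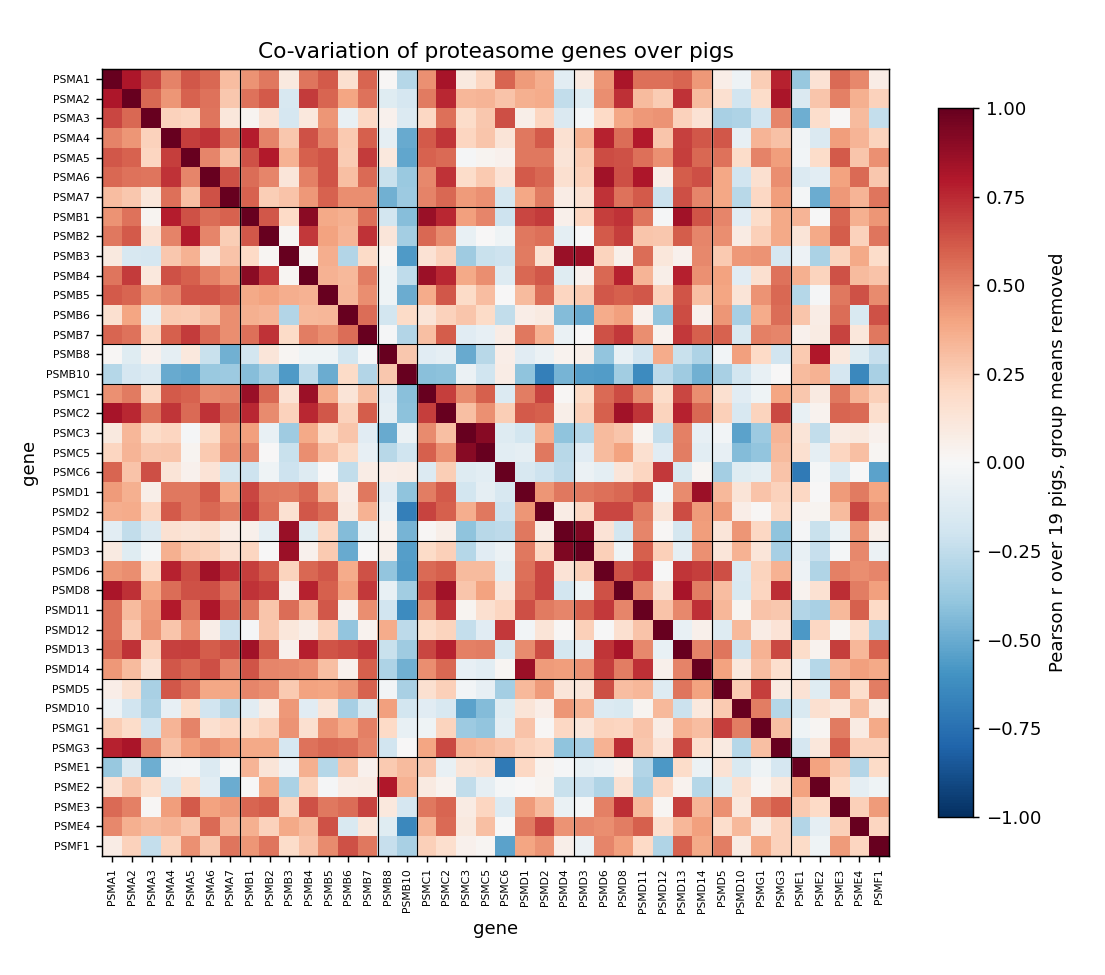
Pearson correlation over 19 pigs, with group means removed, between every pair of the 40 members (both axes, by class; lines separate classes). The core and cap subunits are mostly red (mean r of 0.36 between them), and the row of PSMB10 is mostly blue (mean -0.35). PSMB3, PSMD3 and PSMD4, which lie in different classes, have their highest r with each other (0.85 to 0.93).

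HIGH 8697 took a large part in this co-variation. It was the highest pig for 18 of the 29 constitutive genes and above the gene's mean in 28 of them, and its median deviation from the gene means was 0.50, against at most 0.23 (LOW 1444) in any other pig. The core and the cap were raised alike in it, by 0.46 and 0.52. At the low end, LOW 1918 (-0.25), HIGH 1536 (-0.20) and HIGH 1540 (-0.19) lay below the mean in most genes, so both ends of the range held pigs of either group. The same HIGH 8697 had the lowest PSMB10 (4.55), the lowest PSME1 (6.97) and the lowest TAP1 (5.64). Without it, the mean r over all pairs of constitutive genes was 0.27 in place of 0.36, and the mean r of PSMB10 with them was -0.18. Its array median was 3.503, its 3′ minus 5′ control signal was 1.20, the second highest after LOW 1444, and its skeletal muscle fibre list had the lowest mean of all pigs (15.07); their part in its proteasome values was not tested.

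PSMB3, PSMD3 and PSMD4 had the largest SDs of the members (0.95, 0.94 and 1.05), and the same 2 pigs had the low values in all of them. PSMD4, a ubiquitin receptor of the base, was 7.46 in HIGH 2144 and 7.52 in LOW 2157, and 10.12 to 11.28 in the other 17 pigs. PSMD3, a scaffold subunit of the lid, was 7.06 and 6.49 in these pigs, and 8.62 to 10.27 in the others. PSMB3, a non-catalytic beta subunit, was 4.81 and 4.65, and 6.14 to 8.19 in the others. The pigs came from different groups, and the difference between HIGH and LOW was 0.32 for PSMB3, 0.18 for PSMD3 and 0.15 for PSMD4, each with a wide interval that held 0. With 1 pig left out, that of PSMB3 ranged from 0.07 to 0.56. PSMD3 and PSMB3 lie on chromosome 12 and PSMD4 on chromosome 4.

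The same pigs were not low for most other constitutive genes, although HIGH 2144 had the lowest PSMD1 of all pigs (10.42). The median deviation over the 29 genes was 0.19 in HIGH 2144 and 0.00 in LOW 2157, and LOW 2157 had the highest PSMB6, PSMB10 and PSMG3 of all pigs. Across the array, 73 of 23999 probe sets (0.304%) had both pigs more than 1 log2 unit below the other 17, while the next pair of pigs had 13 such probe sets. These 73 included probe sets of EIF5A, HNRNPK, CRYAB, PPP1CA and DDX6, which were picked for naming after their values were seen. Since these pigs form a cluster apart, correlations of the 3 genes were computed over the other 17 pigs, a choice made after the data were seen. Pearson's r was 0.64 for PSMD3 with PSMD4 (Spearman 0.52), 0.60 for PSMB3 with PSMD4 (0.57) and 0.56 for PSMB3 with PSMD3 (0.50), with permutation p-values of 0.00621, 0.0113 and 0.0178 (Spearman 0.036, 0.0197 and 0.0434), which after adjustment over the 3 pairs were 0.0169, 0.0169 and 0.0178 (Spearman 0.0434 for each). These tests were against no correlation. With group means removed, the 3 pairs had r of 0.63, 0.58 and 0.55, in the same order, beside a mean of 0.46 over all constitutive pairs in the same 17 pigs. Without the 2 pigs farthest from the median of the first gene, r was 0.83 for PSMD3 with PSMD4, and it was lower for the pairs with PSMB3 (0.47 and 0.35 without HIGH 1533 and HIGH 8697), which rested in part on those pigs. Within HIGH pigs r was 0.92, 0.71 and 0.69, and within LOW pigs 0.18, 0.32 and 0.32, a difference that was not tested.

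**Figure D5:**
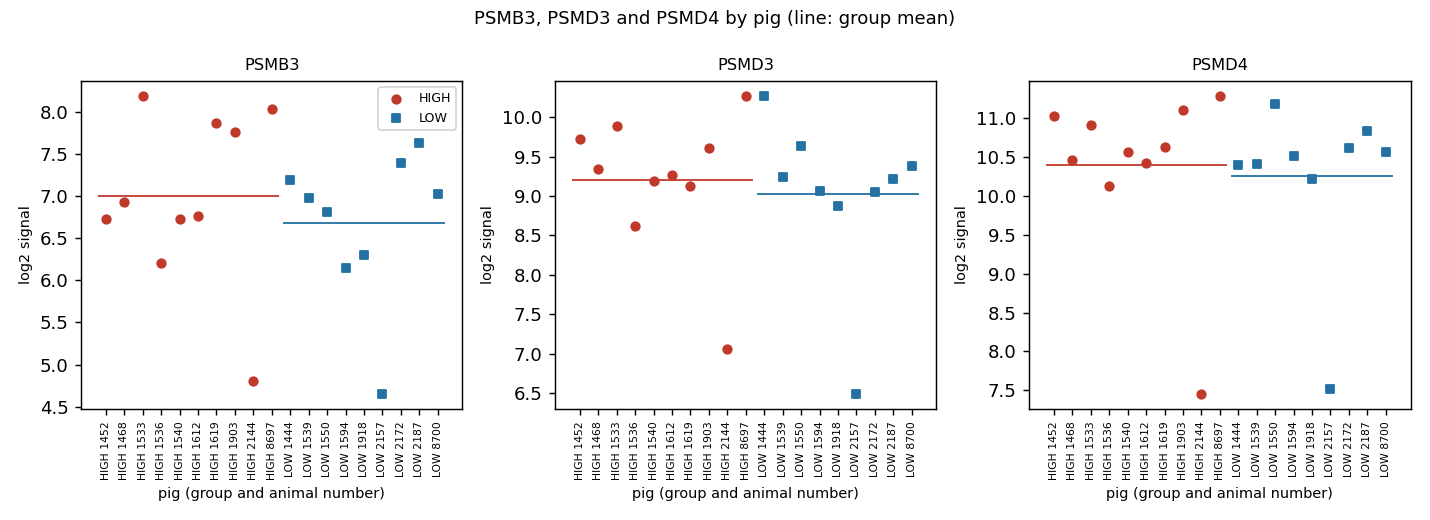
Log2 signal (vertical axes, which differ in range and do not start at 0) of PSMB3, PSMD3 and PSMD4 by pig (horizontal axis), with HIGH pigs as circles, LOW pigs as squares and group means as lines. HIGH 2144 and LOW 2157 are the lowest pigs in each panel, at 7.46 and 7.52 for PSMD4.

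Of 13 pairs of partner genes listed for a test over the 19 pigs, 7 had both genes measured. The ATPase neighbours PSMC1 and PSMC2 were positively correlated (Pearson r = 0.71, permutation p = 0.00057, adjusted over 7 pairs p = 0.00399; Spearman 0.68, permutation p = 0.00188, adjusted 0.0132). Without the 2 pigs farthest from the median r was 0.67, and within HIGH and LOW pigs it was 0.69 and 0.73. The test was against no correlation, while the mean r over all constitutive pairs was 0.36. With group means removed, r of PSMC1 and PSMC2 was 0.69, below PSMC1 with PSMB1 (0.86) and PSMC2 with PSMD8 (0.84). The test therefore does not set these neighbours apart from other constitutive pairs. For PSMB8 and TAP1 r was 0.67 (permutation p = 0.00348, adjusted 0.0122; Spearman 0.64, permutation p = 0.00378, adjusted 0.0132). PSMB8 was above the tag controls in LOW 8700 and LOW 1594 only, so the ranks of the other pigs carry no order and no relation is called from these values. Without both of these pigs r was 0.47, and without LOW 8700 alone 0.37 (permutation p = 0.0565 and 0.135). The same limit holds for the pairs of PSMB8 with PSMB10 and with PSMB5.

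The other 5 pairs did not pass the threshold. PSME1 and PSME2 had an r of 0.44 (permutation p = 0.0521, adjusted 0.122; Spearman 0.45, permutation p = 0.0519, adjusted 0.121), with 0.45 without the 2 farthest pigs, 0.22 within HIGH and 0.72 within LOW pigs. For PSMB8 and PSMB10 r was 0.35 (permutation p = 0.157, adjusted 0.22; Spearman 0.42, permutation p = 0.0774, adjusted 0.135) and 0.18 without the 2 farthest pigs. For the constitutive subunits and the immunoproteasome subunits that replace them, r was 0.01 for PSMB5 and PSMB8 (permutation p = 0.963, adjusted 0.963; Spearman -0.19, permutation p = 0.428, adjusted 0.499) and -0.39 for PSMB7 and PSMB10 (permutation p = 0.0972, adjusted 0.17; Spearman -0.09, permutation p = 0.723, adjusted 0.723). The latter was -0.0015 without HIGH 1903 and HIGH 8697, so it rested on those pigs. The ATPase neighbours PSMC3 and PSMC6 had an r of -0.22 (permutation p = 0.361, adjusted 0.421; Spearman -0.31, permutation p = 0.196, adjusted 0.274), which was -0.63 without LOW 1444 and LOW 2157 (unadjusted permutation p = 0.0067). Within HIGH and LOW pigs r of this pair was -0.55 and 0.19, of opposite sign, and with group means removed it was -0.13.

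Where a gene had several probe sets, they mostly gave the same picture. The 3 probe sets of PSMC2 differed between the groups by 0.10, 0.15 and 0.19, and the dimmer ones had r of 0.84 and 0.76 with the brightest. The second probe set of PSMD1 differed by 0.16 against 0.10 for the brightest (r = 0.68). For PSMD11, a lid subunit, the 3 probe sets gave -0.13, -0.02 and -0.13, with r of 0.85 and 0.45 to the brightest. The probe sets of PSMF1 gave -0.09 and -0.05 and were the least alike (r = 0.33).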

How the data were processed

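RNA of the LD muscle of 19 pigs (10 HIGH, 9 LOW) was hybridised by the authors to 1 Affymetrix porcine array per pig. The deposited values are log2 signals made by the authors by GCRMA, which corrects the background, normalizes and summarises (no release number is stated). Another deposited table repeats the log2 values of 4268 of the 24114 probe sets. How its probe sets were selected is not explained, and it served as an alternative.

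The 115 control probe sets were left out. Genes were named from the platform annotation, and all 40 members were matched by Entrez identifier to RefSeq (Sscrofa11.1). HIGH was compared with LOW over 23999 probe sets by limma 3.58.1 in R 4.3.3 (lmFit, then eBayes with the trend option that the study used), with p-values adjusted by Benjamini-Hochberg and a threshold of 0.05. Ratios were compared by exact permutation over 92378 splits, gene pairs by permutation tests with 100000 resamples, two-sided (Python 3.11.15, numpy 2.4.6, scipy 1.17.1). The fit was tested on simulated data with known changes. The number of arrays limits the precision. The level of a probe set was called background where it did not exceed the brightest of 17 tag control probe sets on its array.

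The members and lists were chosen with earlier results of these data known. Values are given for the catalytic and immunoproteasome subunits, PSME1 to PSME4, the 5 members with the smallest p in each direction, the 3 with the largest and the 3 with the smallest SD, and members with an outlying pig. Alternatives were no trend, a filter on dim probe sets, array medians subtracted, quantile normalization, a 3′ minus 5′ covariate, the mean of a gene's probe sets, Spearman correlation, and leaving out each pig. The skeletal muscle, macrophage, lymphocyte, endothelial and adipocyte lists were measured by 7, 7, 8, 7 and 5 genes. The endothelial list had means of 5.07 to 5.87 in HIGH and 5.11 to 5.52 in LOW pigs. No sequence is shown.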

Additional observations from a re-analysis of the deposited data

Results flagged for a closer look

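Within each group, the highest or lowest pig was set against its nearest neighbour by Dixon's ratio. Of 84 sets of values (40 members, the array median and the 3′ minus 5′ signal in each group), 15 exceeded the 95% critical value, where chance gives about 1 in 20, or 4.2. The members are correlated, so the sets are not independent.

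Most of these values came from 4 pigs. HIGH 8697 was far above its group in PSMD6 (11.07, others 10.42 ± 0.17, SD, n = 9), PSMD8 (11.44, others 10.73 ± 0.15) and PSME4 (11.11, others 9.80 ± 0.26). HIGH 2144 was far below in PSMD4 (7.46, others 10.72 ± 0.38) and PSMD3 (7.06, others 9.45 ± 0.48). LOW 2157 was far below in PSMD4 (7.52, others 10.59 ± 0.30, SD over 8 pigs), PSMD3 (6.49, others 9.34 ± 0.44) and PSMB3 (4.65, others 6.93 ± 0.51), and far above in PSMG3 (7.37, others 5.74 ± 0.32). LOW 8700 was far above its group in PSMB8 (4.35, others 2.44 ± 0.13) and PSME2 (8.14, others 7.34 ± 0.18).

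Single pigs also stood apart in PSMB2 (LOW 1550, 11.19, others 10.72 ± 0.11) and PSMB5 (LOW 1539, 10.21, others 10.66 ± 0.10). The array median was highest in HIGH 1536 (3.59, others 3.47 ± 0.03), and the 3′ minus 5′ signal in LOW 1444 (1.61, others 1.003 ± 0.15).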

How the results depend on the processing

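No probe set passed the adjusted threshold under any alternative that was run. PSMD10 had an unadjusted p below 0.05 in each of them, the second table included (p = 0.0334, adjusted p = 0.661). The number of members higher at an unadjusted p below 0.05 was 1, and it was 2 after quantile normalization (PSMG3 added), 2 with the 3′ minus 5′ covariate (PSMA1 added) and 3 without HIGH 2144 and LOW 2157 (PSMA1 and PSMG3 added, chosen after seeing the data). With 1 pig left out it ranged from 1 to 4, the highest without HIGH 1536. The number lower was 0, ranged from 0 to 2 with 1 pig left out (PSME1 and PSMC3 without HIGH 1536), and was 1 by the exact permutation test (PSMB8). With 1 pig left out, the mean correlations ranged from 0.33 to 0.48 within the core, 0.22 to 0.35 within the cap and -0.43 to -0.18 for PSMB10 with the constitutive genes. Without HIGH 2144 and LOW 2157 they were 0.48, 0.43 and -0.46. Of 571 alternative values of the 22 named genes, 8 changed sign, none of them with an unadjusted p below 0.05, and the cause was not tested. These were PSMD4 (-0.19) and PSMD3 (-0.13) without LOW 2157, which ranged up to 0.47 and 0.42 with 1 pig left out, PSMB6 (-0.0056 to 0.0708 with 1 pig left out), and PSMD6 (-0.0457 to 0.0611 with 1 pig left out, and -0.0143 without HIGH 2144 and LOW 2157). With 1 pig left out, the difference in the ratio ranged from -0.62 to -0.37 for PSMB10 over PSMB7 and from -0.30 to -0.03 for PSMB8 over PSMB5. Among the gene pairs, r of PSMB8 and TAP1 fell to 0.47 without the 2 farthest pigs and to 0.37 without LOW 8700, r of PSME1 and PSME2 was 0.55 after quantile normalization (permutation p = 0.00962), r of PSMC3 and PSMC6 was -0.63 without the 2 farthest pigs, and r of PSMB5 and PSMB8 was -0.0445 with group means removed and -0.11 without LOW 8700. The dim filter removed PSMB8 only. Signals near background, as for PSMB8, limit what can be read from small differences. No paired analysis was possible because the groups share no animal numbers.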
